A study of Homo sapiens with 4 samples.

Results

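TDP-43 knockdown was examined in neurons exposed to 5-azacytidine by comparing 2 long-read RNA libraries, which are 2 of the 4 libraries of the series. They were chosen by their labels: both were treated with azacytidine, and they differed in the guide RNA. The azacytidine library came from neurons with a non-targeting guide RNA, and the combined library from neurons with a guide RNA against TDP-43. Both were made from KOLF2.1J, an induced pluripotent stem cell line in wide use, here carrying the transcription factor NGN2 behind a doxycycline-inducible promoter and a constitutive dCas9-BFP-KRAB CRISPR interference construct, which silences the gene a guide RNA points to. Guides were delivered by lentivirus, cells were selected with puromycin and kept as stable pools, and each library is 1 pool. Neurons received 5 µM azacytidine, a nucleoside analogue that blocks DNA methyltransferases, for 72 hours. The labels leave the day of harvest of each library open. The other 2 libraries hold the same guides without azacytidine. Every ratio is the combined library over the azacytidine library unless the pair without azacytidine is named.

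TDP-43, encoded by TARDBP, is a nuclear RNA-binding protein that binds UG-rich sequence in introns and keeps unannotated (cryptic) exons out of messenger RNA. When it is lost, cryptic exons appear in a known set of transcripts, and several of these end early or are degraded. STMN2, which encodes the microtubule regulator stathmin-2 of growing axons, is the target best known in human neurons.

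The azacytidine library held 466337 reads in genes and the combined library 477622. Of 27523 genes with a read in the pair, 7138 had a mean of at least 20 reads and were tested. With 1 library a side there is no replicate check, so each test compares the reads of these libraries, not the conditions, and intervals cover counting error only. In bulk RNA, fewer cells of a type and less RNA per cell cannot be told apart. Reads assigned to a transcript made up 68.1% of gene reads in the azacytidine library and 60.4% in the combined library. Full-length reads made up 35.7% and 31.2% of transcript reads. All 10 neuronal markers were detected in both libraries, among them DCX with 250 and 244 reads and NCAM1 with 284 and 292. Together the 10 had 1434 and 1250 reads. Their median log2 ratio was -0.43, against 0.07 over all genes tested. It was below 0 for 7 of the 10, and for 3230 of the 7138 genes tested. The label calls the cells cortical. A mean of 20 reads was reached by 5 of 10 forebrain markers, led by SLC17A6 with 103 and 82 reads, and by 4 of 10 peripheral and hindbrain markers, among them ISL1 with 88 and 66. The forebrain marker BCL11B had 0 reads in both libraries. The 10 forebrain markers together had 247 and 278 reads, and the 10 peripheral and hindbrain markers 367 and 295. Neural progenitor markers summed to 90 and 71 reads, pluripotency markers to 219 and 277, glial markers to 33 and 24, and mesenchymal and endothelial markers to 19 and 7. Defining markers at 0 in both libraries included SOX1 of progenitors, AQP4, S100B and SLC1A3 of astrocytes, and DCN and TWIST1 of mesenchymal cells.

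Of the unannotated exons higher in the combined library, 5 lie between annotated coding exons. The annotated junctions that join those coding exons are shown because they are the sites at which the unannotated exons were inserted. Lower case is the last 30 bases of the upstream exon and capitals are the first 30 bases of the downstream exon, 5′ to 3′, from GENCODE 29 transcripts on GRCh38:
EPB41L4A: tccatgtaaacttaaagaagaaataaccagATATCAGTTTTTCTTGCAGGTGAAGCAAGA
ZNF423: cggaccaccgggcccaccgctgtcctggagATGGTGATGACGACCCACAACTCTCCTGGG
UBASH3B: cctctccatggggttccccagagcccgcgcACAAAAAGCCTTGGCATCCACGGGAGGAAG
HDGFL2: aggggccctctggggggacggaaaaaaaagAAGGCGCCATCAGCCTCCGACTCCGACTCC
AARS1: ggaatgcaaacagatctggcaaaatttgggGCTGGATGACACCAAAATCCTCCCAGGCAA

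Reads of the targeted gene check the labels. TARDBP (gene ENSG00000120948.19 on chromosome 1, 11012344 to 11030528, plus strand, hg38) had 73 reads in the azacytidine library and 43 in the combined library, or 148 and 88.7 CPM, which are reads scaled to the effective library size. Its log2 ratio was -0.73 (95% interval -1.31 to -0.17), with an adjusted p of 0.0537 by the two-sided exact binomial test, which missed the threshold of 0.05. The main coding transcript, ENST00000240185.8, had 51 and 21 reads, a log2 ratio of -1.23 (-2.06 to -0.49, unadjusted exact p = 0.000558). It stood at 42.1% of its level in the azacytidine library. The interval of the gene lay below 0, the side the knockdown label implies, although the gene was not called. Without azacytidine TARDBP had 104 and 72 reads.

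STMN2 lost most of its coding transcript. The gene (ENSG00000104435.14, chromosome 8, 79611117 to 79666158, plus strand) had 140 reads in the azacytidine library and 64 in the combined library, a log2 ratio of -1.10 (-1.55 to -0.66, adjusted p = 6.65e-06, exact binomial test). Its coding transcript ENST00000220876.12 had 87 reads against 13, which is 15.3% of its level (log2 ratio -2.66, -3.68 to -1.87, unadjusted exact p = 1.66e-14). Reads that lay in the gene but in no transcript did not follow: there were 47 and 46 of them, a log2 ratio of -0.00 (-0.62 to 0.61). A short unannotated transcript of 2 exons, whose last exon spans 79616822 to 79619794, had 2 reads against 5, or 2.15% (95% Wilson interval up to 7.51%) against 27.8% (12.5% to 50.9%) of the transcript reads. With 7 reads in the pair it was too sparse for the test of shares. The pair without azacytidine had 0 and 12 such reads, and 77 and 19 of the coding transcript.

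CELF5, which encodes a neuronal regulator of alternative splicing, was among the most depleted coding genes. It lies on chromosome 19 (ENSG00000161082.13, 3224661 to 3297076, plus strand) and had 91 reads in the azacytidine library and 6 in the combined library, or 184 and 12.4 CPM. The log2 ratio was -3.79 (-5.38 to -2.72, adjusted p = 6.44e-18, exact binomial test). Reads in its transcripts numbered 58 and 6. Unannotated transcripts BambuTx2643 and BambuTx2644 held 20 and 27 of these reads in the azacytidine library, and 0 and 2 in the combined library. Without azacytidine CELF5 did not fall in total reads, with 68 against 86. Its transcript reads there were fewer, 56 against 39, while 12 and 47 reads lay in no transcript. On total reads the log2 ratios of the pairs differed by -3.98 (adjusted p = 4.67e-13, exact test of the difference). The difference on transcript reads was not tested.

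**Figure D1:**
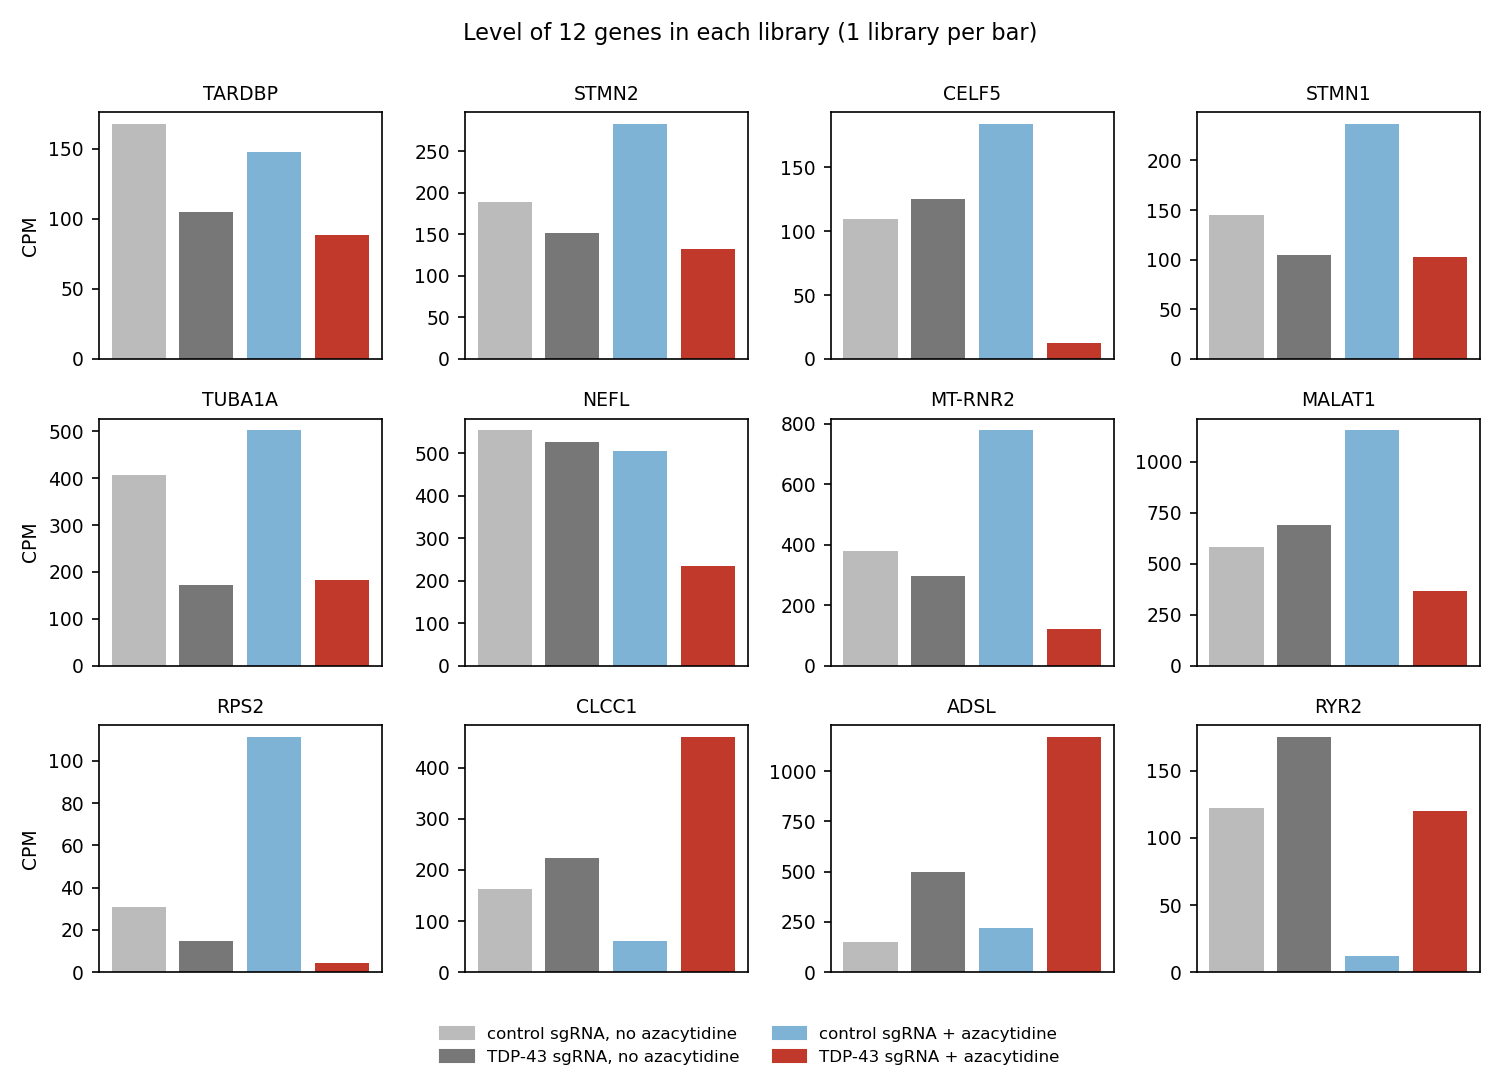
Level of 12 genes in each of the 4 libraries, in CPM on effective library sizes, 1 library per bar. In the azacytidine pair (blue and red), TARDBP, STMN2, CELF5 and the cytoskeletal and mitochondrial genes were lower in the combined library, and CLCC1, ADSL and RYR2 were higher.

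A call required an adjusted p under 0.05 and a 2-fold ratio. Of 7138 genes, 339 were higher (4.75%) and 282 were lower (3.95%), 621 in all (8.7%), and the median log2 ratio was 0.07. By the ratio alone, 703 genes (9.85%) passed 2-fold. When spread beyond counting was allowed for, with edgeR's exact test and the common dispersion of 0.0426 from an additive fit over the 4 libraries, 30 were higher (0.42%) and 42 lower (0.588%). TARDBP, with an adjusted p of 0.89, and STMN2, with 0.51, were not among these, while CELF5 was. The additive edgeR quasi-likelihood fit called 2 genes at the same thresholds. That fit estimates a knockdown effect shared by both backgrounds, not the ratio of this pair. The 15 highest and 15 lowest genes named below, ranked by the interval bound nearest 0, were all called with the common dispersion. Of the 299 higher genes that could be tested without azacytidine, 45 (15.1%) were also higher there, where 6.74% of all genes tested were. Of 251 lower genes, 18 (7.17%) were also lower there, against 2.36%, and 20 (7.97%) were higher there.

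**Figure D2:**
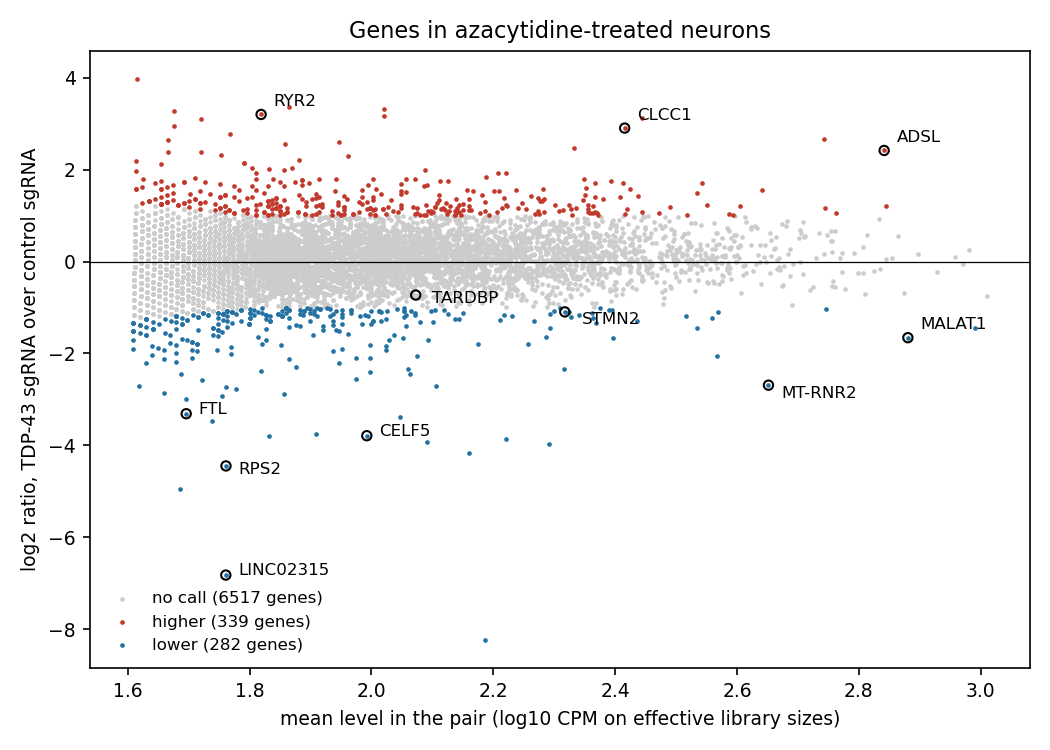
Log2 ratio of the combined over the azacytidine library against mean level (log10 CPM on effective library sizes) for the 7138 genes tested. The 339 higher genes are red and the 282 lower genes blue. CELF5, RPS2 and LINC02315 lie far below 0, TARDBP at -0.73.

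Of the 15 genes that rose most, 9 were annotated as protein-coding. CLCC1, a chloride channel gene of the endoplasmic reticulum on chromosome 1 (ENSG00000121940.17, 108881885 to 108963527, minus strand), had 30 reads in the azacytidine library and 223 in the combined library. Its log2 ratio was 2.90 (2.37 to 3.52, adjusted p = 1.31e-35, exact binomial test). ADSL, which encodes adenylosuccinate lyase of purine synthesis, rose from 108 to 567 reads (log2 ratio 2.41, 2.12 to 2.73). AL022238.4 overlaps ADSL on the same strand of chromosome 22 and had 74 and 464 reads, so reads of these 2 genes may have been split between them. MVP, which encodes the main protein of the vault particle, rose from 9 to 93 reads (3.33, 2.41 to 4.57). It also rose without azacytidine, from 6 to 58 reads. RYR2, the calcium release channel of the endoplasmic reticulum, had 6 reads against 58 (3.20, 2.09 to 4.81), and ANKS1B, a postsynaptic adaptor, had 32 against 177 (2.48, 1.95 to 3.09). Without azacytidine CLCC1 had 101 and 153 reads and RYR2 76 and 120, so the azacytidine library was the lowest of the 4 for both in reads. KIAA0753, a centriolar protein gene, had 5 and 46 reads, and ARHGAP27, a GTPase-activating protein gene, had 2 and 38.

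Non-coding genes and pseudogenes were also among these 15. AC239809.3 had 28 and 242 reads (3.12, 2.57 to 3.76), GMDS-DT 10 and 92, UBE2Q2P1 6 and 65, FAM182A 4 and 42, and CROCCP3 5 and 41. RMST, a long non-coding RNA of neuronal differentiation, had 7 and 50 reads, and 40 and 714 without azacytidine. AL162231.3, which is annotated as protein-coding and had 12 and 74 reads, overlaps IL11RA on its strand, which had 11 and 49. UBE2Q2P1, FAM182A and CROCCP3 have near-identical relatives in the genome, so their counts are uncertain.

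Most of the added reads lay in no transcript. Summed over the 339 higher genes, reads assigned to a transcript numbered 6865 in the azacytidine library and 10605 in the combined library, whereas reads in the gene but in no transcript numbered 4366 and 18080. The assigned share was 61.1% and 37.0%, against 68.3% and 60.7% over all genes tested. On transcript reads alone, 0.674% of 5195 genes were called higher and 2.52% lower, and 28 of the 339 kept their call. Of the 15 highest, 3 had enough transcript reads for that test: MVP (9 and 50) and ADSL (71 and 208) were called and CLCC1 (27 and 45) was not. RYR2 had 6 and 11 transcript reads, and ANKS1B 21 and 18. The lower genes moved the other way, from 59.2% to 69.3% assigned, and 92 of 282 kept their call.

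**Figure D3:**
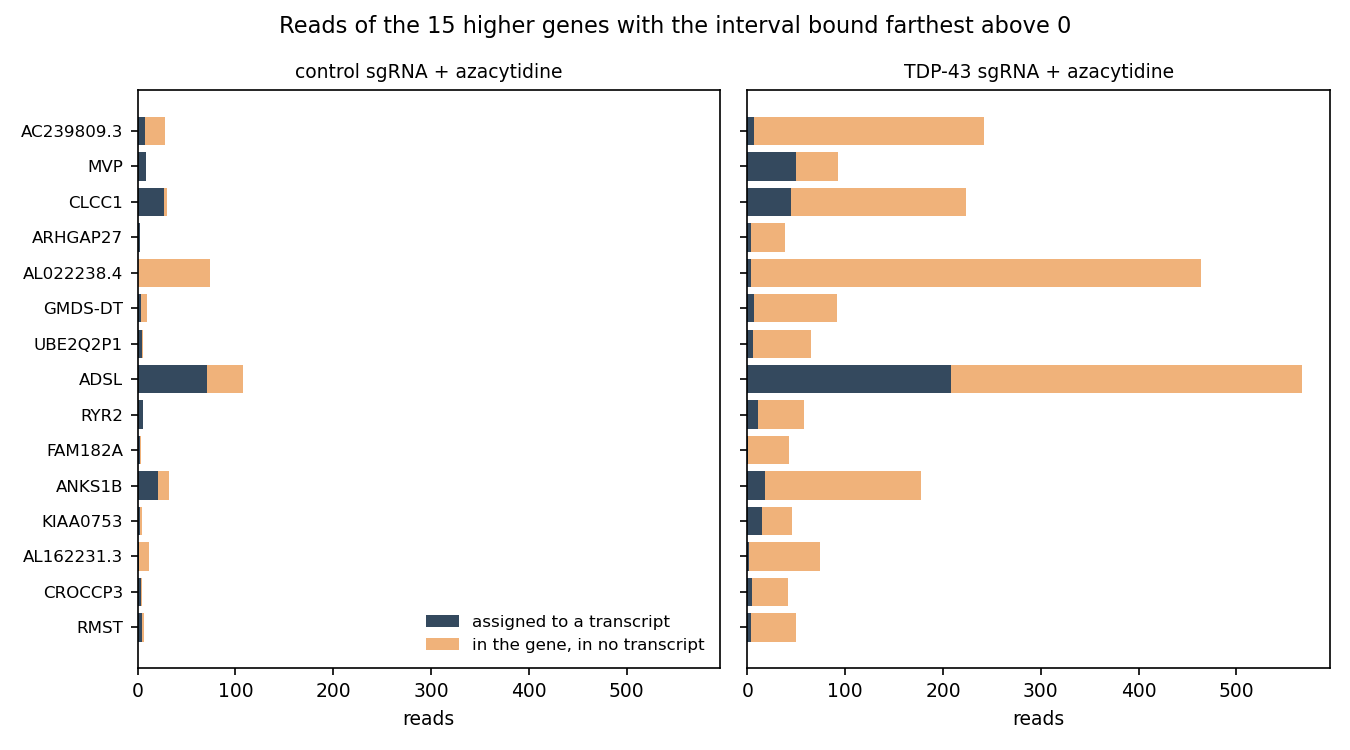
Reads of the 15 highest genes in the azacytidine library (left) and the combined library (right), split into reads assigned to a transcript (dark) and reads in the gene but in no transcript (orange). In the combined library the orange part exceeds the dark part for every gene but MVP.

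The assigned share was then tested gene by gene with Fisher's exact test, requiring a change of 10 percentage points. It was lower in the combined library for 413 of 7136 genes (5.79%) and higher for 106 (1.49%), with a median change of -5.05 points, against -3.49 points without azacytidine, where it was lower for 7.68% and higher for 2.32%. Of the 339 higher genes, 107 (31.6%) had a lower assigned share. CAMK2D, a calcium/calmodulin-dependent kinase gene, showed this clearly: 35 of 37 reads (94.6%) were assigned in the azacytidine library and 5 of 106 (4.72%) in the combined library (adjusted p = 1.01e-21, Fisher's exact test). ACTN1, encoding the actin crosslinker alpha-actinin, had 24 of 24 and 15 of 95 reads assigned. INSYN2A, an inhibitory synapse factor, had 10 of 10 and 4 of 60, and the pseudogene AC138409.1 had 12 of 13 and 0 of 33. Shares rose most in PLOD2 (8 of 50 and 7 of 7 reads), ARPC1B (3 of 44 and 4 of 5), LINC01473 (5 of 51 and 11 of 14), KDM6A (15 of 49 and 24 of 26) and PPP1R3E (9 of 23 and 22 of 22). PLOD2, ARPC1B and LINC01473 were also called lower in total reads, and KDM6A and PPP1R3E were not.

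The 15 genes that fell most had a median span of 2588 bases on the genome, against 46848 over all genes tested, and 5 were protein-coding. The unnamed gene ENSG00000310392.1 had 152 reads in the azacytidine library and 0 in the combined library, at least 49.7-fold lower against a floor of 3 reads. LINC02315, a long non-coding RNA gene on chromosome 14, had 57 and 0, at least 18.6-fold lower. ENSG00000310376.1, which overlaps ENSG00000310392.1 on the opposite strand of an unlocalized sequence of chromosome 22, had 136 and 7 reads. FP671120.3, FP236383.2 and FP236383.3 on the short arm of chromosome 21 had 182 and 11, 154 and 10, and 101 and 9 reads. These 3 loci are of one length, 923 bases, and may share reads. Without azacytidine they had 328 and 85, 382 and 103, and 140 and 60 reads, and ENSG00000310376.1 had 165 and 72. Each was called lower there too. Of the 15 genes, 10 could be tested without azacytidine, and 4 were lower and 1 higher. RN7SL1, an RNA of the signal recognition particle, had 63 reads against 4, and AL627171.2, on the same chromosome, had 115 against 7. LINC02934 had 75 and 5.

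Coding genes among the lowest 15 were RPS2, KIAA1522, FTL, MT-ND2 and CELF5. RPS2, a protein of the small ribosomal subunit, had 55 reads in the azacytidine library and 2 in the combined library (log2 ratio -4.44, -7.83 to -2.83, adjusted p = 4.12e-12, exact binomial test). KIAA1522 had 47 and 1 and FTL, the ferritin light chain, had 45 and 4. RPS2 and FTL have processed copies elsewhere in the genome, so their counts are uncertain. MT-RNR2, the large mitochondrial ribosomal RNA, had 384 and 58 reads (-2.69, -3.12 to -2.30), of which 359 and 55 lay in its transcript.

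Mitochondrially encoded messages were low in the combined library as a group. The 13 coding genes of the mitochondrial genome had 994 reads in the azacytidine library and 301 in the combined library, and 602 in each library of the pair without azacytidine. Reads were fewer in 12 of the 13, the exception being MT-ND3 with 0 and 1. Several were near 0, with 1 at 0 reads in the azacytidine library and 3 in the combined library. Over all genes tested, 3230 of 7138 had a ratio below 0. Only 5 reached the minimum of 20 reads, and all 5 were called lower, against 3.95% of all genes. They reached it mostly through the azacytidine library, which favours a fall, so this count is no support for the group. MT-ND5, of complex I, fell from 707 to 256 reads (-1.44, -1.65 to -1.23), MT-ND4 from 80 to 13 and MT-ND2 from 50 to 4. Most reads of the 13 genes were thus those of MT-ND5, of which 66 and 14 lay in its transcript. MT-CYB, of complex III, fell from 41 to 7, and MT-CO1, of complex IV, from 35 to 8. With the common dispersion MT-ND4, MT-ND2 and MT-CYB kept the call. Of 15 nuclear-encoded oxidative phosphorylation genes tested, 0 were called, against 8.7% of all genes, with a median of -0.18.

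Some cytoskeletal genes of the axon were lower, 3 of them tubulins. Of 33 tested members of the list of axonal cytoskeleton and transport genes (34 in all), 5 fell (15.2%, against 3.95% of all genes) and 0 rose, and the list's median log2 ratio was -0.16 against 0.07 over all genes. TUBA1A, the main alpha-tubulin of young neurons, had 248 reads in the azacytidine library and 89 in the combined library (-1.45, -1.82 to -1.10, adjusted p = 1.98e-15, exact binomial test). The beta-tubulins TUBB2A and TUBB2B had 36 and 9 and 114 and 46 reads, and the neurofilament light chain NEFL had 250 and 114. KIF5B, the heavy chain of the ubiquitous kinesin motor, had 95 and 22 (-2.06, -2.82 to -1.40). The microtubule-associated MAP2 (319 and 162 reads, -0.95) and MAP1B (634 and 371, -0.74) stayed under the 2-fold threshold, and the growth cone protein GAP43 had 181 and 191. Of these 5 calls only that of KIF5B held with the common dispersion. All 4 stathmins were below 0, as were 3230 of the 7138 genes tested. Of the 4, STMN1 and STMN2 were called (50%, against 3.95% of all genes), and neither call held with the common dispersion. STMN1, a microtubule destabiliser, fell from 117 to 50 reads (-1.19, -1.71 to -0.71). TUBA1A also fell without azacytidine, from 252 to 118 reads, whereas KIF5B had 128 and 197 there and the difference between pairs was -2.53 (adjusted p = 3.35e-11, exact test of the difference).

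Cytosolic ribosomal protein genes mostly lacked depth, as 8 of 43 could be tested. Of these, RPS2, RPL13 (43 and 19 reads) and RPL15 (66 and 28) fell (37.5%, against 3.95% of all genes), 0 rose, and the median was -0.54. RPS2, with 55 and 2 reads, reached the minimum only through the azacytidine library, which favours a fall. The share of 37.5% is thus no support for the list. With the common dispersion RPS2 alone kept its call. Summed over all 43 members there were 750 reads in the azacytidine library and 452 in the combined library. Ratios also varied with transcript length: in the fifth of genes with the shortest transcripts (up to 2470 bases) the median log2 ratio was -0.11, with 56 higher and 105 lower, and in the longer transcripts, in 4 groups of like size, it was between 0.03 and 0.15. With the trend on transcript length removed, 277 genes were higher and 299 lower. Whether length accounts for any of these calls was not tested.

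Among postsynaptic genes more calls were higher than lower in total reads. Of 24 tested members (43 in all), 6 rose (25%) and 1 fell (4.17%), against 4.75% and 3.95% of all genes, 17 had no call and the median was 0.31. SHANK2, a scaffold of the excitatory synapse, had 13 reads in the azacytidine library and 61 in the combined library (2.22, 1.38 to 3.25, adjusted p = 3.74e-07, exact binomial test). Its relative SHANK1 had 23 and 48, the scaffold DLGAP4 170 and 372, the AMPA receptor subunit GRIA4 28 and 60, and CAMK2D 37 and 106. DLG2, the scaffold PSD-93, fell from 45 to 7 reads (log2 ratio -2.57). On transcript reads, SHANK2 alone kept its rise (13 and 34), GRIA4 had 24 and 16, and CAMK2D was lower (35 and 5, log2 ratio -2.66). SHANK2 and DLG2 kept their calls with the common dispersion.

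Of 24 voltage-gated ion channel genes tested (40 in all), 3 calcium channel genes rose (12.5%, against 4.75% of all genes), 0 fell and the median was 0.29. Without azacytidine 8 of 23 tested rose. They were CACNA1A (26 and 83 reads), CACNA1B (93 and 208) and the auxiliary subunit CACNA2D2 (30 and 61). With azacytidine the transcript reads of the 3 were 23 and 22, 39 and 49, and 25 and 36, and none was called on these or with the common dispersion. The sodium channel gene SCN2A had 36 and 57 reads, without a call.

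**Figure D4:**
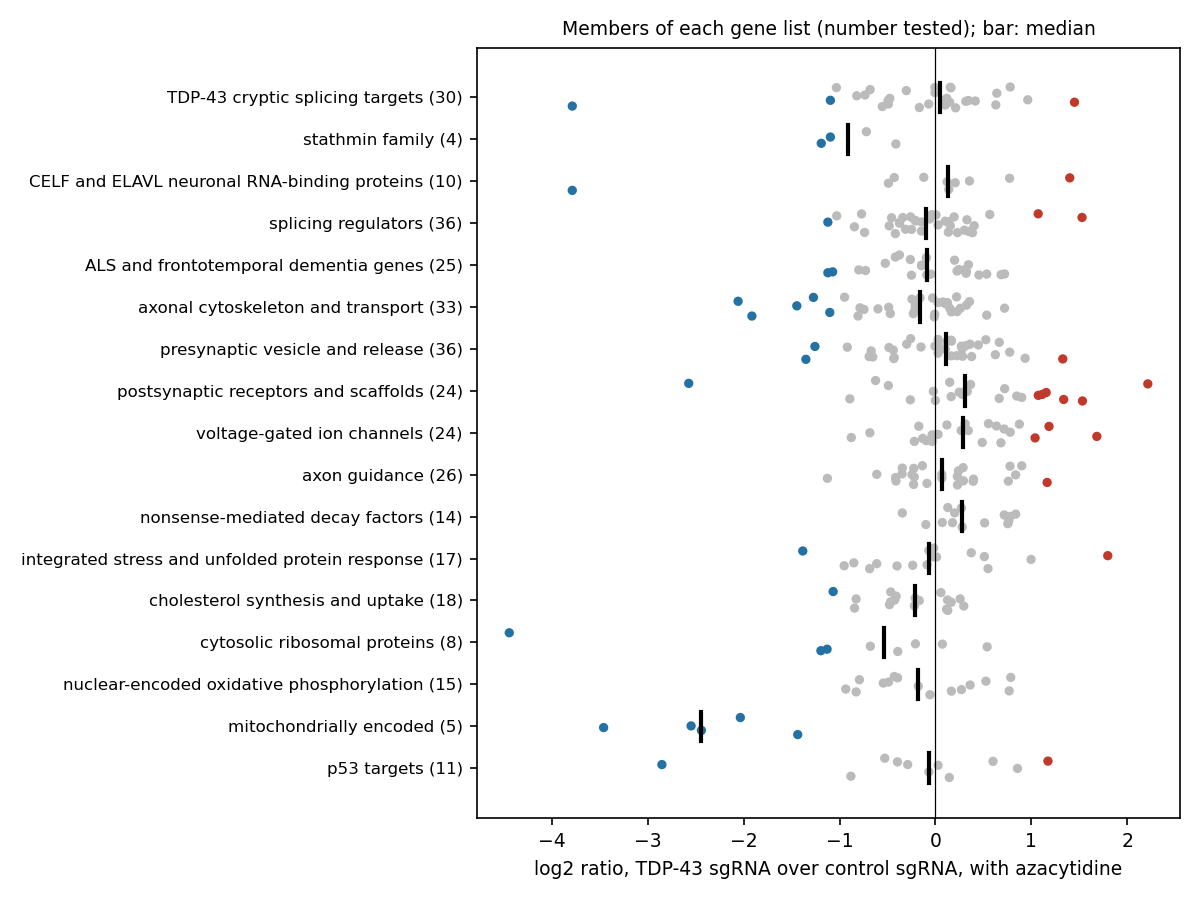
Log2 ratios of the tested members of 17 gene lists, with the number tested in brackets. Red points are higher calls, blue points lower calls, grey points no call, and the black bar is the median, which lies at -2.44 for the mitochondrially encoded genes and 0.31 for the postsynaptic genes.

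Few known TDP-43 targets were called in gene level. Of 30 members, all tested, 2 fell (STMN2 and CELF5, 6.67%, against 3.95% of all genes) and 1 rose (AGRN, 59 and 159 reads, 3.33% against 4.75%), and the median was 0.05. With the common dispersion CELF5 alone kept its call. UNC13A, a synaptic vesicle priming factor, had 44 and 43 reads, ELAVL3 152 and 106, and KALRN 369 and 403. Among CELF and ELAVL genes, ELAVL4 (HuD, a neuronal mRNA stabiliser) rose from 63 to 164 reads, while its transcript reads were 43 and 36. Of 36 splicing regulators tested, HNRNPD (72 and 149 reads) and RBFOX1 (41 and 117) rose and HNRNPA1 (96 and 43) fell, with a median of -0.10. That is 5.56% higher and 2.78% lower, near the 4.75% and 3.95% of all genes. RBFOX1 had 38 and 31 transcript reads. The calls of ELAVL4 and of these 3 splicing regulators were lost with the common dispersion. Of 14 nonsense-mediated decay factors, 0 were called, against 8.7% of all genes, with ratios between -0.35 and 0.84.

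The remaining lists held few calls, and of those named here RRM2B alone kept its call with the common dispersion. Over all genes tested 4.75% were higher and 3.95% lower, and most shares below are near these. In the presynaptic list SV2B, a vesicle protein, rose (20 and 50 reads), and the vesicle GTPase RAB3A (47 and 19) and the endocytic dynamin DNM3 (71 and 27) fell, of 36 tested (2.78% higher, 5.56% lower). Of 26 axon guidance genes the netrin receptor UNC5D rose (17 and 38), or 3.85%. In the stress response list the asparagine synthetase gene ASNS rose (19 and 66) and SEL1L, of endoplasmic reticulum-associated degradation, fell (62 and 23), of 17 (5.88% each way). Of 25 ALS and frontotemporal dementia genes, HNRNPA1 and the phosphoinositide phosphatase FIG4 (67 and 31) fell (8%). Of 18 cholesterol genes the sterol desaturase SC5D fell (39 and 18), or 5.56%. Of 11 p53 targets the receptor EDA2R rose (30 and 67) and the ribonucleotide reductase subunit RRM2B fell (40 and 5), or 9.09% each way. Of 22 proliferation genes 1 had enough reads and it was not called. DNMT3B, a DNA methyltransferase and a marker of pluripotent cells, had 30 and 66 reads, while the pluripotency factors POU5F1 and NANOG had 2 and 0 each.

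Some ratios of total reads went opposite ways with and without azacytidine. Over 8145 genes, the log2 ratio of the azacytidine pair was lower than that of the other pair by at least 1 for 541 genes (6.64%) and higher for 184 (2.26%), by a two-sided exact test of the difference. Scaling moved that split, to 411 lower and 260 higher with DESeq2 size factors and 381 and 290 with total counts, and the median difference from -0.12 to 0.00 and 0.04. PLCB4, a phospholipase C of signalling by G proteins, had 142 and 65 reads with azacytidine and 103 and 935 without it, a difference of -4.12 (adjusted p = 4.28e-59, exact test of the difference). TTN had 226 and 97 against 189 and 652, MTMR2 369 and 178 against 295 and 748, CRNKL1 94 and 28 against 77 and 330, TRIM2 134 and 59 against 181 and 566, and RNF44 97 and 17 against 61 and 163. Transcript reads of PLCB4 (53 and 48), TTN (11 and 10) and MTMR2 (117 and 103) were not called in the azacytidine pair, and for TTN were too few to test. In TRIM2 (109 and 41) and RNF44 (64 and 11) they were called lower. Without azacytidine, transcript reads were 36 and 67 for PLCB4, 23 and 16 for TTN, and 118 and 135 for MTMR2. For TRIM2 they were 121 and 172 there, and for RNF44 44 and 73. CRNKL1 had 45 and 25 transcript reads with azacytidine and 48 and 59 without. In the knockdown library without azacytidine most reads of these genes lay in no transcript, as with 868 of the 935 of PLCB4. MALAT1, an abundant nuclear non-coding RNA, fell from 570 to 177 reads with azacytidine and had 361 and 473 without, a difference of -1.90. On uniquely assigned reads its ratio in the azacytidine pair was -0.56 and was not called. Of these 7 genes, MALAT1 and RNF44 kept the call of the azacytidine pair with the common dispersion.

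Unannotated exons of the messages were examined as the share of the gene's transcript reads that carried them. Of 89 loci tested, 9 were higher in the combined library (10.1%) and 2 lower (2.25%), by Fisher's exact test and a change of 10 percentage points. Without azacytidine 8.85% were higher and 3.54% lower. Of 42 internal exons, which are neither first nor last in their transcripts, 6 were called, and all 6 had 0 reads in the azacytidine library. A locus with 0 reads there could reach the minimum of 10 reads only through the combined library. Its direction was thus fixed in advance and is no support for a rise. Of the 89 loci, 8 had 0 reads in the azacytidine library and 0 loci had 0 reads in the combined library. EPB41L4A, which encodes a membrane-cytoskeleton protein, gained 75 bases (chromosome 5, 112267210 to 112267284, minus strand), 879 bases from exon 5 and 8041 from exon 4 at the junction shown above. It was in 0 of 39 reads, which allows up to 7.69%, and in 19 of 26 reads (73.1%, 95% Wilson interval 53.9% to 86.3%, adjusted p = 1.58e-09, Fisher's exact test). ZNF423, a zinc finger transcription factor of neurodevelopment, gained 63 bases (chromosome 16, 49640443 to 49640505, minus strand) between exons 3 and 4. It was in 0 of 57 reads, allowing up to 5.26%, and in 24 of 42 (57.1%, 42.2% to 70.9%, adjusted p = 2.60e-10, Fisher's exact test). Without azacytidine the exon was in 0 of 63 and 4 of 76 reads, and the difference between backgrounds was not tested.

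UBASH3B, a phosphatase gene, gained 35 bases (chromosome 11, 122744155 to 122744189, plus strand) in the intron of 120008 bases between exons 1 and 2, in 0 of 31 and 14 of 25 reads (56.0%). HDGFL2, a histone-binding protein gene and known TDP-43 target, gained 138 bases (chromosome 19, 4492015 to 4492152, plus strand), 179 bases after exon 6, in 0 of 29 and 13 of 29 reads (44.8%). SEPTIN11, a cytoskeletal GTPase gene, gained 97 bases (chromosome 4, 77032457 to 77032553, plus strand) in 0 of 130 and 39 of 115 reads (33.9%, 25.9% to 43.0%). AARS1, the alanyl-tRNA synthetase gene, gained 87 bases (chromosome 16, 70272796 to 70272882, minus strand) in 0 of 60 and 13 of 99 reads (13.1%, 7.84% to 21.2%). In these 6 genes the exon was present in the combined library alone of the pair, and it was also present in the knockdown library without azacytidine. The lengths in EPB41L4A, ZNF423, HDGFL2 and AARS1 are multiples of 3, and those in UBASH3B and SEPTIN11 are not. None of these 6 genes was called in level: HDGFL2 had 35 and 37 reads, AARS1 100 and 131, and EPB41L4A 64 and 45.

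Other loci lay at the ends of transcripts. A first exon of NFYA (a subunit of the CCAAT-binding factor, 383 bases, chromosome 6) was in 0 of 35 and 11 of 30 reads (36.7%), and in 0 of 33 and 0 of 49 without azacytidine. A first exon of CAMK2B (the beta subunit of the same kinase family as CAMK2D, 2117 bases, chromosome 7) was in 0 of 42 and 13 of 45 reads (28.9%). A last exon of CREB3, a membrane-bound transcription factor, rose from 5 of 27 to 20 of 25 reads (18.5% and 80.0%). The 2 lower loci were a first exon of the receptor phosphatase PTPRG, in 21 of 38 and 8 of 45 reads, and a last exon of LRRC49, in 28 of 41 and 8 of 32. Uniquely assigned reads carried fewer of these. In the combined library there were 8 in EPB41L4A, 6 in ZNF423, 5 in UBASH3B, 10 in HDGFL2, 22 in SEPTIN11 and 8 in AARS1, and at the ends of transcripts 2 in NFYA, 8 in CAMK2B, 15 in CREB3, 4 in PTPRG and 4 in LRRC49. Tested on unique reads alone, 1 of 31 loci was called. Unannotated transcripts held 7.97% of transcript reads in the azacytidine library and 8.97% in the combined library (95% Wilson intervals 7.88% to 8.07% and 8.87% to 9.08%).

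**Figure D5:**
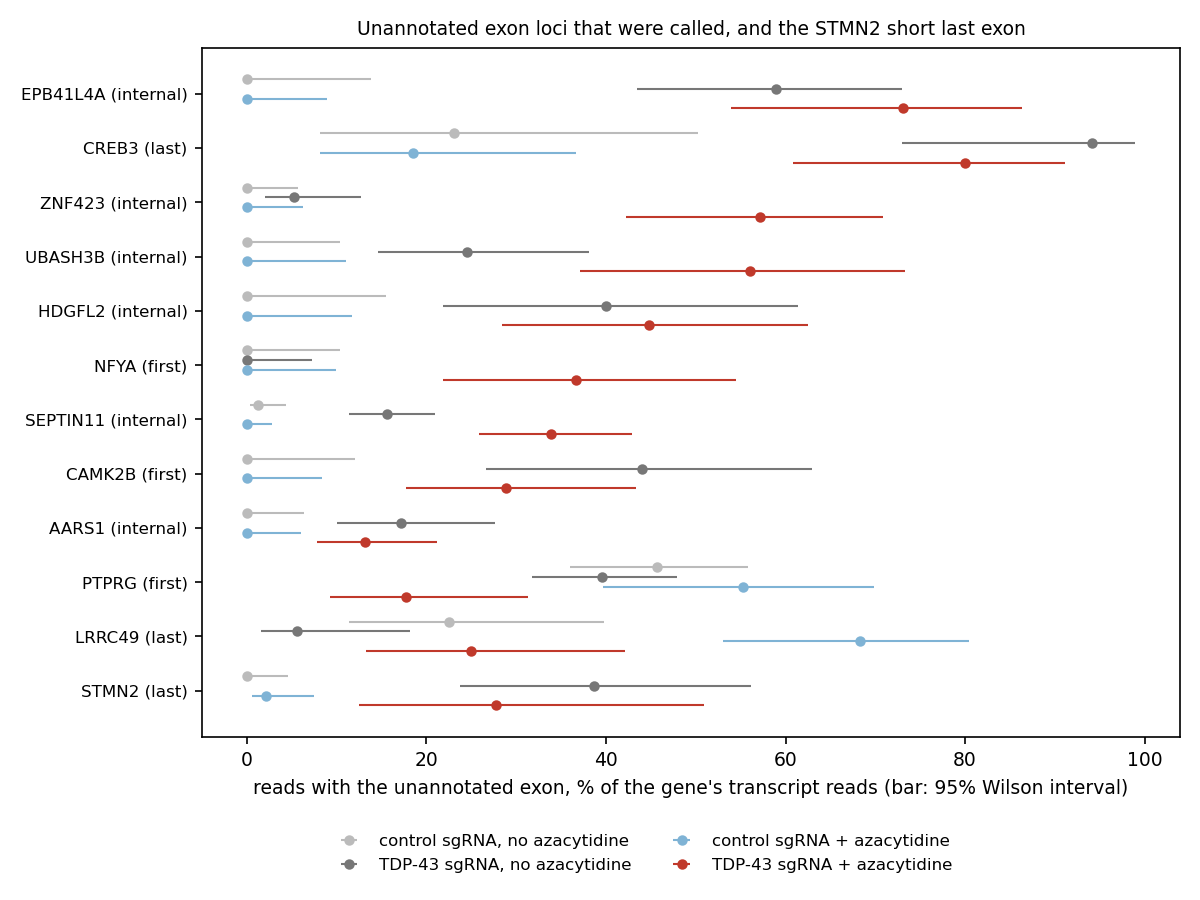
Share of a gene's transcript reads that carried each unannotated exon, in percent with 95% Wilson intervals, in the 4 libraries. The 11 loci called in the azacytidine pair are shown with the STMN2 last exon, which was too sparse to test. The internal exons lie at 0% in the azacytidine library and between 13.1% and 73.1% in the combined library.

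Isoform shares were tested for 9577 transcripts of 5055 genes. In the combined library 317 had a higher share (3.31%) and 309 a lower one (3.23%), in 412 genes, and 31 of these genes were also called in level. In 243 of the 626 calls one library had 0 reads of the transcript. On uniquely assigned reads 49 of 3998 transcripts were called, and of the 626 calls 114 could be tested on these reads and 35 held. By size of change the largest were near-complete exchanges, as in SRPRB, a signal recognition particle receptor subunit, where ENST00000466490.7 had 28 of 28 transcript reads in the azacytidine library and 0 of 25 in the combined library, where ENST00000678299.1 had them all. In PDPR BambuTx2129 (20 of 20 reads) gave way to BambuTx6714 (24 of 24), and in MTMR1 ENST00000445323.7 had 16 and 0 reads and ENST00000490316.7 had 0 and 21. The gaining transcript had 0 unique reads in SRPRB, 2 in PDPR and 1 in MTMR1, while the losing one had 19, 4 and 1 in the azacytidine library. Without azacytidine MTMR1 ran the other way, with 0 and 16 reads of ENST00000445323.7. In the sodium pump subunit gene ATP1B1, ENST00000367816.5 had 67 of 74 reads, 47 of them unique, in the azacytidine library and 0 in each of the other 3 libraries. In the splicing factor gene PRPF4, ENST00000374199.9 had 0 of 27 and 40 of 45 reads, 24 of them unique, and 36 and 41 reads without azacytidine. Further gains were in PSMC2, HECW2 and TRRAP, from 0 reads to 16, 24 and 28, and further losses in ABCA2 (21 and 2 reads), CALM2 (95 and 0) and AC116366.3 (33 and 5), with at most 2 unique reads in either library.

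Several isoform changes that also held on unique reads were in neuronal cytoskeleton genes, which were picked out after their values were seen. In NEFM, the neurofilament medium chain, ENST00000433454.3 had 3 of 110 transcript reads in the azacytidine library and 25 of 69 in the combined library (36.8%), with 2 and 18 unique reads, while ENST00000221166.10 went from 107 to 42. Without azacytidine the former had 1 and 2 reads. In STMN1, ENST00000455785.7 went from 66 of 94 to 11 of 38 reads and ENST00000465604.1 from 3 to 14, and without azacytidine the latter had 4 and 12. The beta-tubulin transcript TUBB ENST00000327892.13 went from 104 of 113 reads to 18 of 43. In GNAO1, the G protein subunit abundant in neurons, ENST00000262493.12 went from 97 of 129 to 48 of 105 reads and ENST00000262494.13 from 20 to 49. LINC00641 gained ENST00000555688.1, from 0 of 24 to 36 of 61 reads, all of them unique, and it had 0 reads in both libraries without azacytidine.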

How the data were processed

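Polyadenylated RNA was sequenced as full-length cDNA (PacBio Iso-Seq with MarathonRT first-strand synthesis, per the labels' protocols). Minimap2 alignment to hg38 and an annotation extended by Bambu are named per the file headers; versions and settings are not given in the sources used here. The deposited gene and transcript tables hold estimated counts, with reads that fit several transcripts divided among them; further deposited tables hold estimated counts of full-length reads, counts of uniquely assigned reads, and CPM of the gene total, the last used only as a check. All deposited counts are even, so a count of 2 was taken as 1 read and halved.

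A mean of 20 reads in the pair was the minimum for a gene. The main test was the exact binomial test, two-sided, on TMM effective sizes (edgeR 4.0.16), with Benjamini-Hochberg adjustment over all of them, a pseudocount of 0.5, exact 95% Clopper-Pearson intervals and a floor of 3 reads. The test of the difference between pairs was an exact conditional test on 4 libraries with a mean of at least 20 reads. Shares (exon loci, transcripts, assigned reads) were compared by Fisher's exact test with scipy 1.17.1. Loci and transcripts needed 10 reads in the pair and a mean of 20 transcript reads in the gene, and transcripts at least 2 per gene. The exact tests of levels, differences and shares were tested on simulated data. DESeq2 1.42.0 served for alternatives. Each group is 1 library, so the designed tests treat reads, not replicates, as the unit.

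The genes named were TARDBP, STMN2, CELF5, called members of 18 gene lists, the 15 higher and 15 lower calls with the interval bound farthest from 0, 10 genes with the smallest p of the difference, all called loci up to 15, 8 transcripts each of largest gain and loss (1 per gene), and 5 genes each of largest rise and fall in assigned share. Members, lists and 7 marker lists were chosen with earlier results of these data known. Some genes that this rule names are not reported here. Alternatives were scaling, filters, pseudocount, count table, dispersion and undivided counts.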

Additional observations from a re-analysis of the deposited data

Results flagged for a closer look

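The log2 ratio of the azacytidine pair differed from that of the pair without azacytidine for 46 of the genes named, by a two-sided exact test of the difference with an adjusted p under 0.05 and a size of at least 1. Most of the genes named were chosen by calls in the azacytidine pair, and 10 by the smallest p of this same test. The count of 46 is thus raised by the choice and is no result about these genes. Over all 8145 genes 6.64% had a lower ratio with azacytidine and 2.26% a higher one. The values below are the ratio with azacytidine minus the ratio without it, and rest on 1 library per group. Scaling by total counts or DESeq2 size factors moves the median difference of all genes up by more than 0.1, from -0.12 to 0.04 or 0.00.

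The difference was below 0 for 33 genes. The most negative were LINC02315 (-11.09), ENSG00000310392.1 (-5.93), KIAA1522 (-5.45), LINC02934 (-5.05), PLCB4 (-4.12), RRM2B (-4.02), CELF5 (-3.98). Next came RNF44 (-3.72), CRNKL1 (-3.65), RPS2 (-3.41), RN7SL1 (-3.36), AL627171.2 (-3.22), TTN (-2.83), ENSG00000310376.1 (-2.82). These were followed by KDM6A (-2.76), PLOD2 (-2.65), TRIM2 (-2.65), FIG4 (-2.58), KIF5B (-2.53), MT-RNR2 (-2.33), MTMR2 (-2.22). Smaller differences were those of MT-ND4 (-2.16), FP236383.3 (-2.03), TUBB2A (-1.98), MALAT1 (-1.90), FP671120.3 (-1.87), DLG2 (-1.84), FP236383.2 (-1.82). The last were DNM3 (-1.75), SEL1L (-1.68), LINC01473 (-1.54), MT-ND5 (-1.53), NEFL (-1.03). LINC02315 had 57 and 0 reads with azacytidine and 2 and 53 without, so that value is set by the pseudocount and is no bound, and the same holds for ENSG00000310392.1 (152 and 0, 15 and 3).

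The difference was above 0 for 13 genes. The largest were those of CROCCP3 (5.06), KIAA0753 (4.81), UBE2Q2P1 (3.44), ASNS (3.09), RYR2 (2.69), CLCC1 (2.45), ACTN1 (2.43). The others were GMDS-DT (2.30), SHANK2 (2.15), ANKS1B (1.49), CACNA1B (1.24), HNRNPD (1.08), RBFOX1 (1.06).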

How the results depend on the processing

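Against 621 genes called, other gene settings gave 1009 with a mean of at least 5 reads, 166 on transcript reads, 136 on unique reads, 1412 without halving, 72 with the common dispersion, and 2 (edgeR quasi-likelihood) and 14 (DESeq2) in additive fits over 4 libraries, where 763 and 144 genes had an unadjusted p under 0.05. DESeq2 size factors, total counts, removal of the length trend, no minimum above 1 read and a pseudocount of 2 gave 576 to 905. Of the 166 calls on transcript reads 131 were lower, and 120 were among the 621. The TARDBP ratio passed the adjusted threshold with total counts (-0.79), with the length trend removed (-0.81) and on transcript reads (-1.06), but not on unique reads (-0.92). Against 11 loci called there were 0 of 9 on full-length reads, 1 on unique reads and 53 without halving. Against 626 transcripts there were 20, 49 and 2544. The rise in the unannotated share, 1.00 percentage point, was 1.77 on full-length and 1.15 on unique reads. Across the gene lists 42 members were called, and 27 on transcript reads (3 higher, 24 lower), a setting applied to the lists after seeing the data. On unique reads the calls of MTMR2, MALAT1, HNRNPD, RPL13, SHANK1 and STMN1 were among those lost.

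The additive fits estimate a knockdown effect shared by both backgrounds, not the ratio of the azacytidine pair. Ratios changed sign in these fits (edgeR, then DESeq2) for PLCB4 (1.06, 0.93), TTN (0.27, 0.19), MTMR2 (0.10, 0.048), CRNKL1 (0.32, 0.089), TRIM2 (0.27, 0.14) and FIG4 (0.30, 0.20). They did so on transcript reads for CAMK2D (-2.66), CACNA1A (-0.035), ELAVL4 (-0.23), GRIA4 (-0.54) and RBFOX1 (-0.26), and on unique reads for ELAVL4 (-0.54) and DLGAP4 (-0.011); the cause was not tested. No paired analysis was possible because each group has 1 library and all carry the same replicate number; the additive fits block on azacytidine, not on a replicate. Depth limits the test to genes with a mean of 20 reads, and a count of 0 allows up to 3 reads.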
